A study of Mus musculus with 16 samples.

Results

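*Mbp*, *Mobp*, *Mag*, *Mog*, *Opalin*, *Cnp*, *Cldn11* and *Mal* encode proteins of the myelin sheath. They were taken as a group by their symbols, 8 of the 32285 genes of the deposited gene expression matrices. Their RNA was followed in oligodendrocytes (OLs), in the other cell classes of the dentate gyrus (DG), and in barcodes of 1 to 100 UMIs, droplets too poor in RNA to be counted as nuclei. A UMI is a molecular tag that marks 1 captured RNA molecule, and RNA in such droplets is called free RNA here.

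Myelin is the multilayered membrane that OLs wrap around axons in the brain. Its genes are among the most specific markers of mature OLs, and are switched on as OL precursors differentiate, under transcription factors that include Sox10 and Myrf. Some of their mRNAs do not stay near the nucleus: *Mbp* and *Mobp* mRNAs are known to be carried along OL processes and translated close to the sheath, so that a preparation of nuclei holds both nuclear transcripts and what is left of the cytoplasm.

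Nuclei came from the microdissected DG of 4 WT mice and 4 mice homozygous for V321L, a valine-to-leucine change in *Nrg1*, with 2 females and 2 males of each genotype. *Nrg1* encodes neuregulin-1, a ligand of ErbB receptors whose form on axons is known to control myelination in peripheral nerve. Frozen tissue from each mouse gave 1 Multiome library, in which RNA and accessible chromatin are read from the same nuclei. The mice are named F1, F2 (females), M1 and M2 (males), and neither their age at dissection nor the strain is given in the sources used here. The mutation lies in *Nrg1* itself, in all cells of the animal, so nothing below separates an effect within OLs from effects of other cells, and RNA counts do not check the genotype labels. Nothing in the sources used here says in which order or on which day the libraries were prepared.

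The libraries held 4326426 to 14624265 RNA UMIs in WT and 15505354 to 23582057 in V321L, and 16363 nuclei passed the filters. Median UMIs per nucleus were 1093 to 1914 in WT and 2676 to 4140 in V321L. The genotypes also stood apart in the RNA outside nuclei: in free RNA, cytosolic ribosomal protein genes took 0.794% to 1.44% of UMIs in WT and 9.70% to 11.1% in V321L, and mitochondrially encoded genes 6.60% to 10.3% and 13.4% to 20.5%. Each pair of libraries shared between 1 and 12 nuclear barcodes. These differences move with genotype in every comparison of genotypes that follows, and their part in the results was not tested except where a value is given.

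OLs were gated without the 8 genes, by 12 other OL genes such as *St18*, *Ugt8a*, *Aspa* and *Myrf*. This gave 673 OLs, 30, 67, 12 and 51 in WT F1, F2, M1 and M2 and 128, 177, 115 and 93 in V321L F1, F2, M1 and M2. They made up 0.631% to 2.36% of WT nuclei and 6.04% to 9.05% of V321L nuclei, with no overlap of the genotypes. With a minimum of 1000 ATAC counts per nucleus these shares were 0.568% to 2.17% and 3.30% to 9.10%, and with no mitochondrial limit 0.614% to 2.58% and 8.33% to 9.91%, with 730 instead of 513 V321L OLs. Among all 9437 WT and 6926 V321L nuclei, other classes differed too. OL precursors (182 and 232 nuclei), astrocytes (210 and 391), microglia (76 and 241) and vascular cells (18 and 74) were more numerous in V321L. Granule cells were fewer (5937 and 3690), as were nuclei with no class (1776 and 1084). These counts are pooled over mice. The gate refers each list to the free RNA of its library, which differed between genotypes. The part of the gate in the class counts, OLs included, was not tested. All OLs of WT M1 together held 16302 UMIs, so a level there moves in steps of 61.3 counts per 1000000 UMIs (CPM). In WT, the gated class was thinly supported by part of its own list: *Tmem125* had no UMI in the OLs of any of the 4 WT mice and *Myrf* had none in 1 of them. Of the 12 gate genes, 7 were higher in the OLs of every V321L mouse than in those of any WT mouse. The summed OL list reached 5337 to 10575 CPM in WT OLs and 10223 to 11767 CPM in V321L OLs, against 314 to 390 and 287 to 320 CPM in granule cells (GCs), where *St18* alone held 293 to 365 and 251 to 274 CPM. GC RNA was also more abundant in the gated WT OLs: the GC marker list without *Dock10*, the GC marker with the highest level in OLs, stood at 21.0% to 52.2% of its GC level in WT OLs and at 5.33% to 9.34% in V321L OLs. The gate set each list against the free RNA of the same library. There the GC list stood at 2132 to 2720 CPM in WT and at 367 to 470 CPM in V321L. A WT nucleus could hold more GC RNA for the same OL RNA and still be gated as OL. This contrast is therefore partly fixed by the gate. The WT class is thus OL by its gate, with RNA of GC marker genes in the same sums.

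The 8 genes marked the gated OLs although none was used to gate them. Averaged over the 8 mice, OLs had the highest level of 9 gated classes for every one of the genes. Within single mice OLs ranked first in 8 of 8 mice for *Mbp*, *Mobp*, *Mag*, *Opalin*, *Cnp* and *Cldn11*, and in 7 of 8 for *Mog* and *Mal*. The next class was the OL precursor for *Mbp*, with a mean 11.3-fold below OLs, and for *Cnp*, which encodes a phosphodiesterase of non-compact myelin, at 6.83-fold below. For *Mobp* the OL precursor, the vascular cell and the astrocyte lay together at 24.0 to 24.9 CPM, and for *Opalin* no other class held more than 10.6 CPM on average. *Mbp* in OL precursors was uneven, from 44.5 to 952 CPM over the mice (SD 306, n = 8), and the highest value, in V321L M2, lay above the OL level of WT M1. For *Mag* and *Mog* the next class was the Cajal-Retzius cell, and for *Cldn11* and *Mal* the vascular cell, with between 4 and 13 UMIs in all 8 mice together, too few to order them.

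**Figure D1:**
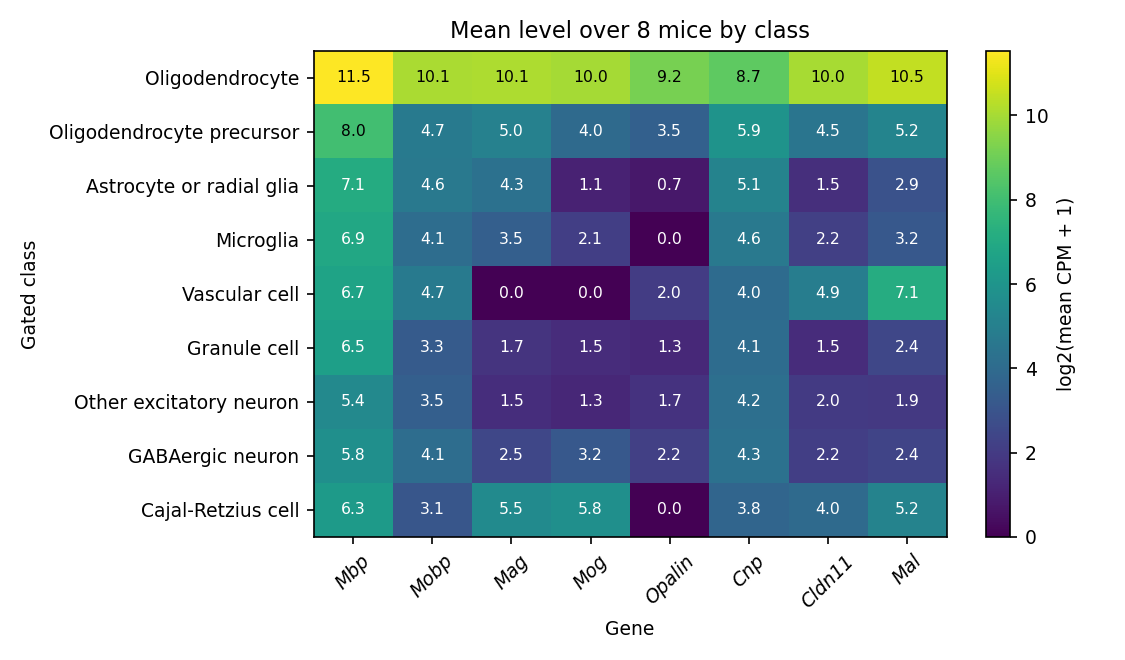
Level of the 8 myelin genes (columns) in each of the 9 gated cell classes (rows), as log2 of the mean CPM over the 8 mice plus 1, given by color and printed in each cell. OLs hold the highest level of each gene, with *Mbp* 11.3-fold and *Cnp* 6.83-fold above OL precursors.

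The start sites of the genes are described next, since promoters were read as chromatin in the same nuclei. Promoter sequences were taken from RefSeq (GRCm38.p6) as the 250 bases before a start site, and 7 of the 8 genes had one. Each was searched on both strands for ACAAAG, the core bound by SOX proteins (CTTTGT on the other strand), and for CTGGCAC or CTGGTAC, letters of the Myrf motif (GTGCCAG or GTACCAG). Of all 32851 RefSeq promoters of this length, 16.5% held the SOX core and 5.93% the Myrf letters. The SOX core was in the windows of *Mobp*, *Mag*, *Opalin* and *Cnp*, and the Myrf letters in those of *Mag*, *Mog* and *Cnp*. Counted by window, as the shares of all promoters are, 5 of 9 held the SOX core and 4 the Myrf letters. *Mag* had 3 windows, of which 1 had no match and 2 overlap and share the same matches. No match was in the windows of *Cldn11* and *Mal*. A match describes these letters and is not evidence of binding. The windows with the most SOX matches and those with the Myrf letters are shown 5′ to 3′ on the strand of the gene, with the matched letters in capitals. They lie at chr9:120149492-120149741 (plus strand) for *Mobp*, chr7:30914864-30915113 (minus) for an upstream start of *Mag*, chr17:37023399-37023648 (minus) for *Mog* and chr11:100574689-100574938 (plus) for *Cnp*.
Mobp: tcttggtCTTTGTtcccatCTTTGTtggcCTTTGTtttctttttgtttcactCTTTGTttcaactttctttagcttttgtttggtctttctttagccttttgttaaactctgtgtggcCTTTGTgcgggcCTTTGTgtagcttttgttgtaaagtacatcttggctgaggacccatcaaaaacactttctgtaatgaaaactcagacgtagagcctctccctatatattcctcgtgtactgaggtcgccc
Mag: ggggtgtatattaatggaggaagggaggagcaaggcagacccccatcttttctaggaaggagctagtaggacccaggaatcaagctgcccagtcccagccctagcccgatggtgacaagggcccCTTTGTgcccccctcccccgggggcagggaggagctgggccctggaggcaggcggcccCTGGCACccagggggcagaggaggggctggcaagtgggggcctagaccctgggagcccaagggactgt
Mog: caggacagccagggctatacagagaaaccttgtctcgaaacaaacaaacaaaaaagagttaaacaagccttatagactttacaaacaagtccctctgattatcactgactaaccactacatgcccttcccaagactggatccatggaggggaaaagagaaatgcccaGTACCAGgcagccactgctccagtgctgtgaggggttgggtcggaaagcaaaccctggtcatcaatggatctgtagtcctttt
Cnp: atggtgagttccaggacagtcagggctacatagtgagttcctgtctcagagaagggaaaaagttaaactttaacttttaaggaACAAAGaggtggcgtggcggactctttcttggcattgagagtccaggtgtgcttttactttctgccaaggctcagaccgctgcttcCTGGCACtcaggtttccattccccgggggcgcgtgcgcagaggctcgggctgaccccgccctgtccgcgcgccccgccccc
The *Mobp* window held 6 SOX cores between 120 and 243 bases before the start. In the *Mag* window the Myrf letters lay 68 and the SOX core 126 bases upstream of that start, in the *Cnp* window 81 and 167 bases upstream, and in the *Mog* window the Myrf letters lay 83 bases upstream.

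In the libraries with a peak at these start sites, ATAC counts were higher in OLs than in GCs, except at the first start of *Mbp*. GCs gave only 2 to 12 counts in the peaks of *Mobp*, *Mog* and *Mal*, so a peak there could hardly be called except through other nuclei such as OLs, and the number of libraries with higher counts in OLs is a description that the presence of a peak partly fixes. ATAC counts were summed over peaks within 1000 bases of a start, and given per 1000000 counts in peaks of that class and per kb of peak. At *Mobp*, whose window carries the SOX cores, the median over the 6 libraries with a peak was 169 in OLs and 1.20 in GCs. At *Mog* it was 121 and 0.474 (3 libraries), at *Cnp* 146 and 10.7 (6 libraries), at *Cldn11* 68.7 and 6.36 (6 libraries) and at *Mal* 57.8 and 1.44 (6 libraries). OLs were the higher class in every one of these libraries. *Mag* and *Opalin* had a peak in 1 library each, with 42.5 against 1.58 and 42.0 against 1.09. Peaks were called in each library separately, covered 789 to 1861 bases, and those of *Mag*, *Mog* and *Opalin* were called only in V321L libraries. Gated OLs were more numerous in V321L, and ATAC depth differed too. The libraries held 6580616 to 25552769 ATAC counts and 36556 to 130470 peaks. V321L M1, the only library with peaks at *Mag* and *Opalin*, had the most of both. The part of OL number and depth in the peaks called was not tested, and a missing peak says nothing about closed chromatin.

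*Mbp* encodes myelin basic protein, which compacts the cytoplasmic faces of the sheath, and has separate starts. At its last start, that of the classical myelin transcripts, the median was 237 in OLs and 8.24 in GCs, and OLs were higher in 6 of 6 libraries. At its first start, which gives the longer Golli transcripts known from neurons and immune cells, the median was 5.50 in OLs and 16.2 in GCs, and OLs were higher in only 2 of 7 libraries, on at most 8 OL counts per library. UMIs in the matrices are summed per gene, so the RNA of the separate starts cannot be told apart.

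**Figure D2:**
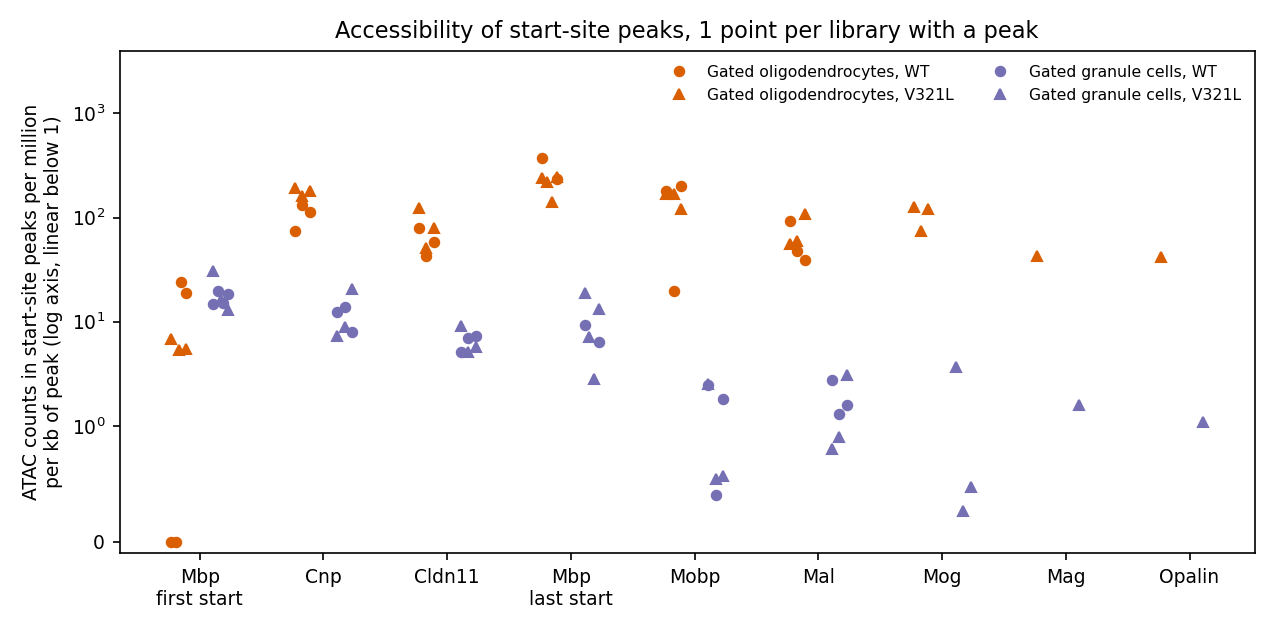
ATAC counts per 1000000 per kb at peaks within 1000 bases of the start sites, in OLs and in GCs, with a point for each library that has a peak (circles WT, triangles V321L) and an axis that is logarithmic above 1 and linear below. Among libraries with a peak OLs are higher than GCs, except at the first start of *Mbp*, where OLs are higher in 2 of 7 libraries.

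Within OLs, most of the 8 genes were higher in V321L. UMIs were summed over the OLs of each mouse and tested with the quasi-likelihood test of edgeR, with Benjamini-Hochberg adjustment over all 1557 genes tested. All 8 genes were tested, 7 were higher in V321L and 0 lower, and their log2 fold changes had a median of 2.31, where the median gene tested stood at 0.08. The low-count filter asked for enough counts in as many mice as a genotype has. *Mog*, *Opalin*, *Cnp* and *Mal* fell short of it in some WT mice and passed only through V321L, so their calls are partly fixed by the filter. Of all genes tested, 44.3% passed the threshold, 25.6% as higher and 18.7% as lower.

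The structural genes of compact myelin rose unequally. *Mbp* stood at 1129, 1186, 859 and 1126 CPM in WT F1, F2, M1 and M2 and at 5290, 5687, 3762 and 4710 CPM in V321L F1, F2, M1 and M2. All 4 V321L mice lay above all WT mice, and the log2 fold change was 2.37 (SE 0.231, adjusted p = 1.90e-07). *Mobp*, which encodes a small basic protein of compact myelin, stood at 753, 623, 368 and 1194 CPM in WT and at 1483, 1991, 991 and 1279 CPM in V321L. These groups overlapped, since WT M2 lay above V321L M1, and the log2 fold change of 1.10 (SE 0.293, adjusted p = 0.00440) was lost after each nucleus was thinned to 500 UMIs (0.56, adjusted p = 0.157). *Mal*, which encodes a proteolipid of membrane rafts, stood at 582, 289, 61.3 and 614 CPM in WT and at 2472, 2624, 2206 and 2694 CPM in V321L. The lowest V321L value was well above the highest WT value, with a log2 fold change of 2.793 (SE 0.321, adjusted p = 1.18e-06).

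*Mag* and *Mog* encode immunoglobulin-type proteins, of the membrane facing the axon and of the outer surface of the sheath respectively. *Mag* stood at 719, 289, 184 and 341 CPM in WT and at 1786, 1894, 1850 and 1766 CPM in V321L, and rose by 2.47 on the log2 scale (SE 0.285, adjusted p = 1.23e-06). *Mog* stood at 684, 258, 0 and 546 CPM in WT and at 1756, 1793, 1541 and 1483 CPM in V321L, and rose by 2.25 (SE 0.360, adjusted p = 4.59e-05). Neither gene overlapped between genotypes. The V321L values of *Mag* were close together, while the WT values were spread over several fold, and no *Mog* UMI was found in the 12 OLs of WT M1.

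*Opalin*, a transmembrane protein of mature OLs, stood at 103, 182, 61.3 and 256 CPM in WT and at 1040, 802, 1061 and 1076 CPM in V321L. The groups did not overlap, and the log2 fold change was 2.69 (SE 0.306, adjusted p = 1.01e-06). *Cnp* stood at 240, 122, 61.3 and 307 CPM in WT and at 767, 485, 488 and 826 CPM in V321L, again without overlap, with a log2 fold change of 1.89 (SE 0.356, adjusted p = 0.000233). *Cldn11*, the claudin of the tight junctions between myelin layers, was the member that did not pass. It stood at 1917, 563, 675 and 648 CPM in WT and at 1254, 1072, 1161 and 1132 CPM in V321L, with a log2 fold change of 0.55 (SE 0.310, adjusted p = 0.160). WT F1 lay above every V321L mouse and the other 3 WT mice lay below them, and without WT F1 the gene passed (log2 fold change 1.06, adjusted p = 0.00161), as it did with a minimum of 1000 ATAC counts per nucleus (1.09, adjusted p = 0.00393). Genes whose groups did not overlap made up 32.1% of the 3681 genes with 40 or more UMIs in OLs, and 20.8% did so with V321L higher. Among the 8 genes, *Mbp*, *Mag*, *Mog*, *Opalin*, *Cnp* and *Mal* did.

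**Figure D3:**
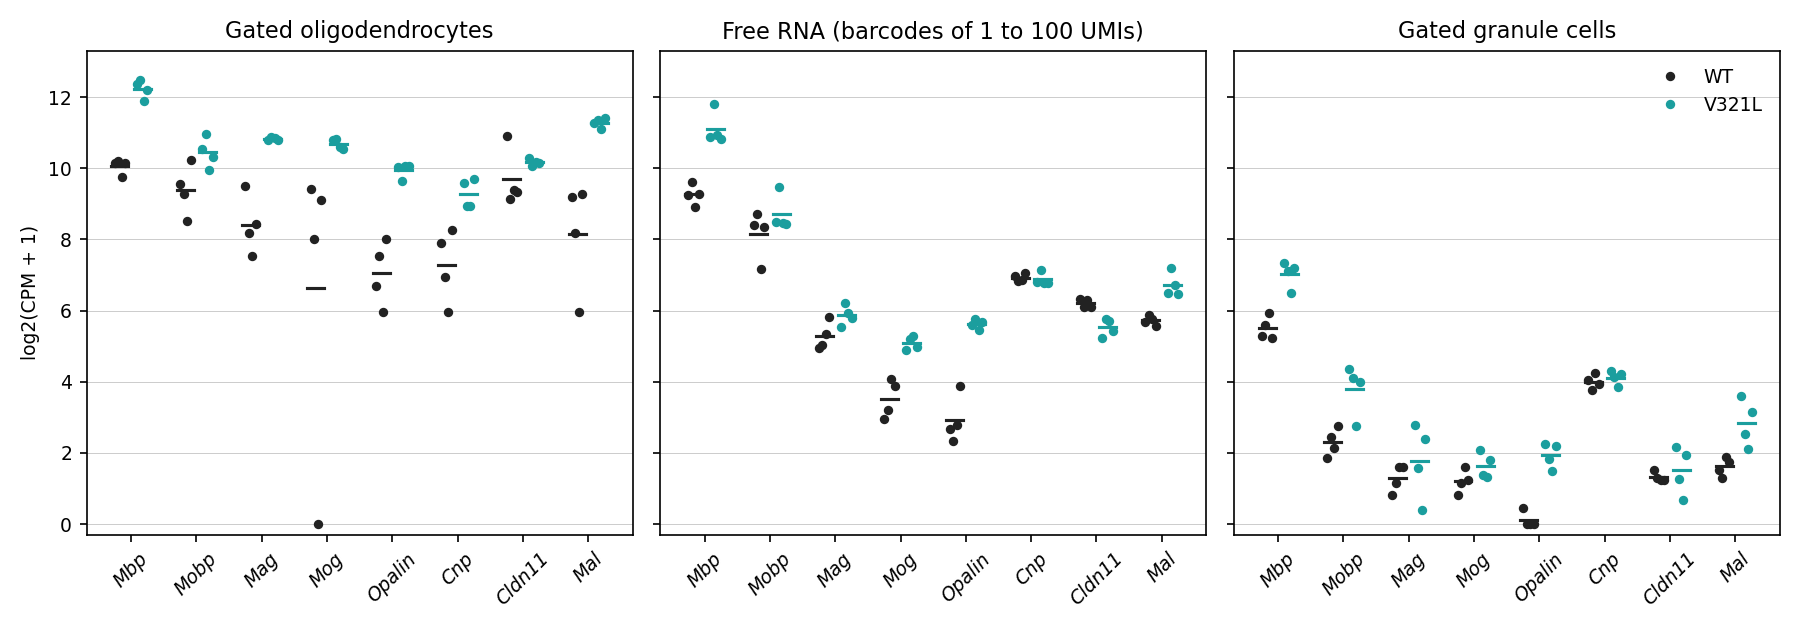
Level of each myelin gene as log2(CPM + 1) in OLs, free RNA and GCs, with a point for each mouse and a bar at the mean of the 4 mice of a genotype. In OLs the genotypes separate for all genes but *Mobp* and *Cldn11*, in free RNA they overlap for *Mobp*, *Mag* and *Cnp*, and *Cldn11* is lower in V321L free RNA at 36.4 to 53.3 CPM.

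Other RNA moved with genotype in the same OL sums. Ribosomal protein genes took 0.0730% to 0.178% of OL UMIs in WT and 0.995% to 2.05% in V321L, and mitochondrial genes 0.202% to 0.530% and 0.996% to 1.66%. With both groups of genes left out before scaling, the log2 fold change of *Mbp* was 2.37 and that of *Mal* 2.80. The GC marker list summed to 4384 to 5489 CPM in WT OLs and to 3033 to 3515 CPM in V321L OLs, but the V321L sum was mostly *Dock10*, at 2605 to 3058 CPM, above its GC level of 941 to 1138 CPM. Without *Dock10* the list stood at 1814 to 4110 CPM in WT OLs and at 278 to 457 CPM in V321L OLs, and 6 of its 8 genes were higher in every WT mouse than in any V321L mouse, such as *Rfx3* at 751 to 1411 CPM against 92.8 to 125. The sums of the other lists in OLs rested in part on genes that GCs or OLs express. The GABAergic list (2208 to 4242 CPM in WT and 1485 to 1842 in V321L) was mostly *Erbb4* and *Adarb2*, of which *Adarb2* stood at 1248 to 2549 CPM in GCs, and its defining genes *Gad2* and *Slc32a1* had 1 UMI each in all OLs. The OL precursor list (274 to 429 and 31.0 to 90.6 CPM) was mostly *Tnr* in WT, at 462 to 829 CPM in GCs, and *Pdgfra* had no UMI in OLs. The astrocyte list summed to 582 to 1946 and 232 to 255 CPM and the microglia list to 137 to 1595 and 75.9 to 125 CPM. The GC contrast is partly fixed by the gate, and the part of all these RNAs in the differences of the myelin genes was not tested. Levels were also set relative to the OL gate list in the same sum. This list chose the nuclei and holds *St18*, which GCs also carry, so the scale cannot take out RNA of GCs. Per 100 UMIs of that list, WT OLs held 10.7 to 16.1 UMIs of *Mbp* and V321L OLs 32.0 to 52.0, for *Mag* 3.45 to 6.80 and 15.7 to 17.3, for *Opalin* 0.971 to 3.01 and 7.34 to 10.5, and for *Mal* 1.15 to 7.21 and 18.8 to 26.4. *Mog* and *Cnp* did not overlap either on this scale, and *Mobp* and *Cldn11* did.

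For most of the 8 genes the difference was also seen per nucleus. *Mbp* had a UMI in 60% to 68.6% of WT OLs and in 94.8% to 100% of V321L OLs, and after thinning every OL to 500 UMIs in 43.3% to 51.0% and 85.2% to 96.6%. All 673 OLs reached 500 UMIs and none was left out. *Opalin* had a UMI in 8.33% to 15.7% of WT OLs and in 53.9% to 60% of V321L OLs, or 6.67% to 11.9% and 32.8% to 43.0% after thinning. *Mag*, *Mog* and *Mal* did not overlap between genotypes at either depth. *Mobp* overlapped as deposited (33.3% to 70.6% and 62.4% to 91.0%) and after thinning (29.9% to 49.0% and 26.1% to 57.1%). After thinning *Cnp* (4.48% to 19.6% and 15.7% to 32.3%) and *Cldn11* (15.7% to 46.7% and 38.4% to 46.9%) overlapped too. Of the 8 genes, an OL held a UMI of 1.75 to 3.45 on average in WT mice and of 5.49 to 6.27 in V321L mice, and of 1.5 to 2.27 and 3.75 to 4.34 after thinning. Median depth of the OLs was 706.5 to 918 UMIs in WT and 880 to 1299 in V321L.

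Other genes of the OL lineage were also higher in V321L OLs. Of 33 other myelin and OL genes listed for this purpose, 23 were tested, 22 were higher in V321L and 0 lower, with a median log2 fold change of 2.24. A gene near 0 in WT could pass the low-count filter only through V321L, and genes low in both genotypes were not tested. The split of these calls is therefore partly fixed by the filter. The 3 with the largest rise were *Ppp1r14a*, a phosphatase inhibitor (log2 fold change 5.17, adjusted p = 5.51e-07), *Sox10*, the transcription factor of the OL lineage (5.06, adjusted p = 1.21e-06), and *Cryab*, a small heat shock protein (4.77, adjusted p = 9.07e-07). *Sox10* stood at 34.2, 15.2, 0 and 0 CPM in WT OLs and at 369, 295, 565 and 306 CPM in V321L OLs. *Sox10* was thus at or near 0 in the gated WT OLs, on 1 UMI in each of the mice F1 and F2. *Ppp1r14a* and *Cryab* stood at 61.3 CPM or less in every WT mouse. These 3 genes passed the filter only through V321L.

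In free RNA the same contrast gave a different picture by gene. Of 11087 genes tested, 75.1% passed the threshold, 37.6% as higher and 37.6% as lower. All 8 genes were tested, 6 were higher and 0 lower, and the middle of their log2 fold changes was 1.17, where the median gene tested stood at -0.01. In a sum over droplets, fewer cells of a type and less RNA per cell cannot be told apart, and OLs were a larger share of V321L nuclei. The OL gate list, which holds *St18*, overlapped in free RNA, at 303 to 413 CPM in WT and 257 to 435 CPM in V321L. *Mbp* stood at 605, 782, 478 and 622 CPM in WT and at 1874, 3590, 1965 and 1813 CPM in V321L, with a log2 fold change of 2.24 (SE 0.227, adjusted p = 7.94e-10). V321L F2 was far above the other V321L mice, and the genotypes did not overlap.

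*Opalin* had the largest rise of the 8 in free RNA. It stood at 5.39, 4.08, 5.93 and 13.8 CPM in WT and at 47.5, 53.7, 42.4 and 50.3 CPM in V321L (log2 fold change 3.21, SE 0.277, adjusted p = 2.96e-11). *Opalin* had 20 UMIs in the free RNA of all WT mice and passed the low-count filter only through V321L, so its call is partly fixed by the filter. *Mog* stood at 6.74, 8.16, 15.8 and 13.8 CPM in WT and at 28.5, 35.8, 38.2 and 30.2 CPM in V321L (2.03, SE 0.262, adjusted p = 7.05e-08). Both were rare in free RNA and separated by genotype without overlap. *Mal* stood at 49.8, 57.9, 53.3 and 46.7 CPM in WT and at 88.6, 144, 104 and 87.6 CPM in V321L (1.36, SE 0.182, adjusted p = 1.32e-07), also without overlap.

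*Mag* and *Mobp* passed the test although their CPM overlapped. *Mag* stood at 29.6, 31.8, 39.5 and 55.3 CPM in WT and at 45.5, 72.6, 59.99 and 54.6 CPM in V321L (log2 fold change 0.97, adjusted p = 9.04e-05). *Mobp* stood at 335, 419, 142 and 325 CPM in WT and at 359, 706, 351 and 341 CPM in V321L (0.85, adjusted p = 0.00205), and its call was lost with library sizes alone (0.50, adjusted p = 0.0604) and with barcodes of 1 to 50 UMIs (0.50, adjusted p = 0.0595). The test scales libraries with TMM, which estimates how RNA composition differs, and with library sizes alone the log2 fold change of all genes had a median of -0.38 instead of -0.01. *Cnp* and *Cldn11* did not pass and lay near the threshold. *Cnp* stood at 124, 113, 115 and 131 CPM in WT and at 110, 141, 107 and 109 CPM in V321L (0.32, SE 0.154, adjusted p = 0.0643), its direction turned with library sizes alone (-0.05), and it passed as higher without WT M1 (0.35, adjusted p = 0.0446) and in DESeq2 (0.35, adjusted p = 0.0380). *Cldn11* stood at 79.5, 67.7, 77.0 and 67.4 CPM in WT and at 36.4, 53.3, 51.2 and 41.6 CPM in V321L, lower in all 4 V321L mice on this scale, with a fitted log2 fold change of -0.32 (SE 0.172, adjusted p = 0.0936), and it passed as lower with library sizes alone (-0.69, adjusted p = 0.000816). Without overlap of the groups in CPM stood 63.9% of the 12501 genes with 40 or more UMIs, 26.9% with V321L higher. Of the 8 genes, *Mbp*, *Mog*, *Opalin* and *Mal* did so with V321L higher and *Cldn11* with V321L lower.

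Of the other 33 genes, 28 were tested in free RNA, 18 were higher and 5 lower. *Ppp1r14a* (log2 fold change 5.19, adjusted p = 5.74e-14) and *Cryab* (3.44, adjusted p = 5.65e-14) led again, followed by *Sept4*, a septin (2.75, adjusted p = 6.11e-12). *Ppp1r14a*, at 0 to 3.46 CPM in WT free RNA, passed the low-count filter only through V321L. The largest falls were those of *Tcf7l2* (-2.28, adjusted p = 6.23e-09) and *Itpr2* (-1.42, adjusted p = 1.46e-06), which are known from newly formed OLs, and of *Gjc3*, a connexin (-0.97, adjusted p = 0.00118). In OLs *Tcf7l2* and *Itpr2* were too low to be tested and overlapped between the genotypes, *Tcf7l2* at 34.2 to 61.3 CPM in WT and 45.3 to 118 CPM in V321L and *Itpr2* at 0 to 61.3 and 7.74 to 81.2 CPM. A list of newly formed OL markers that holds both summed to 67.4 to 81.6 CPM in WT free RNA and 19.1 to 20.8 CPM in V321L free RNA. *Tcf7l2* and *Itpr2* made up most of this sum in every WT mouse, at 38.3 and 39.2 CPM in WT F2. Both were named for their falls, so the fall of the list is largely fixed by that choice. In OLs this list went the other way, at 34.2 to 136 CPM in WT and 238 to 391 CPM in V321L. Part of that V321L sum came from other genes of the list, so the sums in free RNA and in OLs rest partly on different genes. Marker lists of other cells fell in V321L free RNA, the astrocyte list from 2936 to 6758 CPM in WT to 957 to 1445 CPM and the GC list from 2132 to 2720 CPM to 367 to 470 CPM, and their part in the differences of the myelin genes was not tested.

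The free RNA and the nuclei of the same libraries differed strongly in their myelin RNA. Sums over free RNA and over all nuclei were compared with the mouse as a block, among 15009 genes, of which 73.4% passed, 38.7% as higher in free RNA and 34.7% as lower. Of the 8 genes, 7 were higher in free RNA and 0 lower, and their median log2 ratio was 1.70, where the median gene tested stood at 0.03. *Mobp* (3.93, SE 0.160, adjusted p = 2.21e-10) and *Mbp* (3.56, SE 0.163, adjusted p = 4.41e-10) were the highest of the 8, above 99.3% and 98.4% of all genes tested. Of the 33 other myelin and OL genes, 32 were tested, 22 were higher in free RNA and 1 lower. Among them *Plekhb1* (4.60) lay above *Mobp*, and *Cryab* (3.75) lay above *Mbp*. Whether transport of mRNA has a part in these ratios was not tested. *Cnp* followed at 2.48 (SE 0.113, adjusted p = 4.16e-10). *Mal* (1.76), *Cldn11* (1.63), *Opalin* (1.41) and *Mag* (1.41) had smaller differences, and *Mog* did not pass (0.35, SE 0.212, adjusted p = 0.153), though it did with no upper limits on UMIs and genes (0.66, adjusted p = 0.0106) and with a minimum of 1000 ATAC counts (0.49, adjusted p = 0.0458). The ratio of free RNA to nuclei thus varied widely among the 8 genes.

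As ratios of CPM within a mouse, *Mbp* was 7.62 to 13.9 times its nuclear level in the free RNA of WT mice and 6.27 to 11.2 times in V321L mice. *Mobp* was 14.1 to 33.8 times and 6.01 to 11.3 times. In no mouse of either genotype did these ratios fall below 6. *Mag*, *Cldn11* and *Mal* had ratios of 3.83 to 7.85, 3.88 to 8.65 and 4.05 to 10.4 in WT, and of 0.852 to 1.25, 0.981 to 1.72 and 1.13 to 1.75 in V321L. *Cnp* had ratios of 6.48 to 7.35 in WT and 2.65 to 4.02 in V321L, *Mog* of 1.02 to 6.80 and 0.545 to 0.920, and *Opalin* of 1.39 to 4.73 and 1.46 to 1.93. The WT ratios of *Mog* and *Opalin* rest on few counts. Summed over the WT mice, *Mog* had 31 UMIs in free RNA and 121 in nuclei, and *Opalin* 20 and 51. For all of the 8 genes but *Mbp* and *Opalin* the highest V321L ratio was below the lowest WT ratio. The nuclei that these ratios divide by held 0.631% to 2.36% OLs in WT and 6.04% to 9.05% in V321L. The part of this difference in the ratios, and in their test below, was not tested. Of 12121 genes with 40 or more UMIs in both sums, 58.6% had CPM ratios that did not overlap and 55.1% had lower ones in V321L. The gate list of OLs had ratios of 0.765 to 1.05 in WT and 0.514 to 0.670 in V321L, but part of its RNA in nuclei is *St18* RNA of GCs. Ribosomal protein genes had ratios of 12.4 to 20.0 in WT and 6.42 to 13.6 in V321L. Mitochondrial genes had ratios of 28.3 to 55.1 and 11.6 to 36.8.

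**Figure D4:**
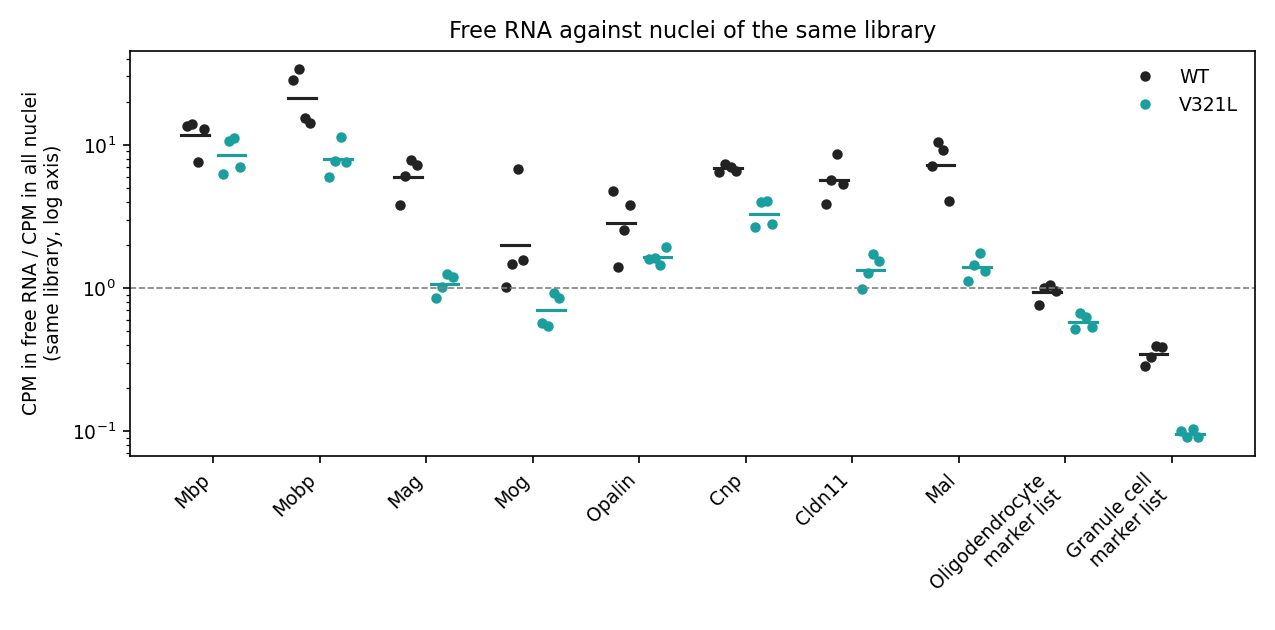
Ratio of CPM in free RNA to CPM in all nuclei of the same library, on a log scale, for each myelin gene and for the summed OL and GC marker lists, with a point for each mouse, a bar at the geometric mean of a genotype and a dashed line at 1. *Mbp* and *Mobp* lie above 6 in all 8 mice, while *Mag*, *Cldn11* and *Mal* lie near 1 in V321L and above 3 in WT.

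Whether the ratio differed between genotypes was tested as the interaction of compartment and genotype, which 32.5% of 15009 genes passed, 17.4% as a higher ratio in V321L and 15.1% as a lower one. Of the 8 genes, 1 had a higher and 3 a lower ratio. The log2 ratio was lower in V321L by -1.29 for *Mag* (SE 0.243, adjusted p = 2.69e-05), -1.18 for *Mal* (SE 0.228, adjusted p = 3.81e-05) and -0.82 for *Cldn11* (SE 0.218, adjusted p = 0.00229). That of *Mbp* was higher by 0.69 (SE 0.196, adjusted p = 0.00452), but the sign rested on the scaling: with library sizes alone it was -0.47 (adjusted p = 0.0514), with barcodes of 1 to 50 UMIs it was 0.19 (adjusted p = 0.576), and the CPM ratios of *Mbp* overlapped. This scaling moved the median of all genes from -0.04 to -1.21, and the share of higher ratios among calls from 53.4% to 4.75% (43.0% with DESeq2 size factors). *Mobp*, *Mog*, *Opalin* and *Cnp* did not pass, with log2 differences of -0.31, -0.12, 0.52 and 0.12. *Mobp* passed as lower without WT M2 (-0.61, adjusted p = 0.0408), with barcodes of 1 to 50 UMIs (-0.75, adjusted p = 0.00960) and with library sizes alone (-1.49, adjusted p = 1.98e-06), where *Mog* (-1.32, adjusted p = 0.00409) and *Cnp* (-1.06, adjusted p = 1.65e-05) passed as lower too.

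The place where the UMIs of a gene lay in a library differed as much. Only 2.29% to 6.73% of all *Mbp* UMIs of a WT library were in gated OLs and 1.75% to 6.63% in V321L, while free RNA held 36.7% to 49.1% and 24.7% to 48.4%. For all genes together, free RNA held 5.996% to 11.7% of UMIs in WT and 13.8% to 15.4% in V321L. *Mog* had more of its UMIs in gated OLs than in free RNA in 7 of 8 mice, all but WT M1, where no OL held a *Mog* UMI, while *Mbp*, *Mobp* and *Cnp* had more in free RNA in all 8. The *Mog* shares were 16.4% to 50% in V321L OLs and 10.7% to 17.5% in V321L free RNA, and 0% to 33.0% and 6.94% to 17.4% in WT. The remaining UMIs lay in other nuclei or in barcodes of over 100 UMIs that were not kept as nuclei, which held 29.5% to 37.5% of *Mbp* UMIs in WT and 39.0% to 70.1% in V321L.

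GCs do not make myelin, and they carried a low level of these RNAs. For *Mbp* this may include transcripts of the first start, which cannot be told apart from the others. *Mbp* stood at 37.8, 47.0, 60.4 and 36.3 CPM in WT GCs and at 162, 138, 88.6 and 146 CPM in V321L GCs, which was 2.36% to 7.03% of the OL level of the same mouse. *Mbp* had a UMI in 6.64% to 7.69% of WT GCs, at median depths of 1068 to 1825 UMIs, and in 28.9% to 38.1% of V321L GCs, at 3137.5 to 4627 UMIs. After thinning to 500 UMIs these shares were 1.71% to 2.95% and 4.24% to 8.46%. The GC shares stand far below the shares of OLs at either depth.

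Of 11986 genes tested in GCs, 69.6% passed the threshold, 38.2% as higher in V321L and 31.4% as lower. Only 4 of the 8 genes had enough counts to be tested, namely *Mbp*, *Mobp*, *Cnp* and *Mal*. *Mal* stood at 1.47 to 2.68 CPM in WT GCs and at 3.34 to 11.1 CPM in V321L GCs. It passed the low-count filter only through V321L, so its call is partly fixed by the filter. *Mobp*, at 2.65 CPM in its lowest WT mouse, fell short of the filter there and passed only with the V321L mice. The call of *Mobp* is therefore partly fixed too. *Mbp* was higher in V321L GCs by 1.11 (SE 0.186, adjusted p = 0.000115), *Mobp* by 1.28 (SE 0.364, adjusted p = 0.00640) and *Mal* by 1.24 (SE 0.422, adjusted p = 0.0173) on the log2 scale. The call of *Mal* was lost without WT F2 (1.08, adjusted p = 0.0674), and after thinning to 500 UMIs only *Mbp* kept enough counts (1.24, adjusted p = 6.01e-05). *Cnp* stood at 12.5 to 18.1 CPM in WT and 13.4 to 18.7 CPM in V321L (-0.31, SE 0.165, adjusted p = 0.112). Its sign turned with library sizes alone (0.16), and it passed as lower with DESeq2 size factors (-0.40, adjusted p = 0.0437). *Opalin* had 1 UMI in all WT GCs and 42 in all V321L GCs. In CPM, *Mbp*, *Opalin* and *Mal* did not overlap between genotypes in GCs and were higher in V321L, where 60.1% of the 13488 genes with 40 or more UMIs did not overlap and 46.0% were higher in V321L.

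The mix of the 8 genes in GCs equalled neither that in OLs nor that in free RNA, and was nearer to free RNA in the share of *Mbp*. *Mbp* took 18.4% to 37.8% of the UMIs of the 8 genes in WT OLs, 48.8% to 52.8% in WT free RNA and 57.2% to 67.8% in WT GCs. In V321L these shares were 28.8% to 34.8%, 71.7% to 74.8% and 71.2% to 76.8%, so that GCs and free RNA overlapped only in V321L. *Mobp* took 15.4% to 28.2% in WT free RNA but 3.73% to 9.09% in WT GCs, which was nearer to its 12.3% to 23.7% in WT OLs. *Cnp* took 7.59% to 12.4% in WT free RNA and 18.0% to 25.2% in WT GCs. In V321L *Cnp* took 2.97% to 5.52% in OLs, 2.94% to 4.32% in free RNA and 8.21% to 11.6% in GCs. As a ratio of CPM in GCs to CPM in free RNA, *Mobp* stood at 0.790% to 5.44%, *Mbp* at 3.83% to 12.6% and *Cnp* at 10.9% to 17.0% over the 8 mice. Whether this RNA in GC droplets came from free RNA was not tested.

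**Figure D5:**
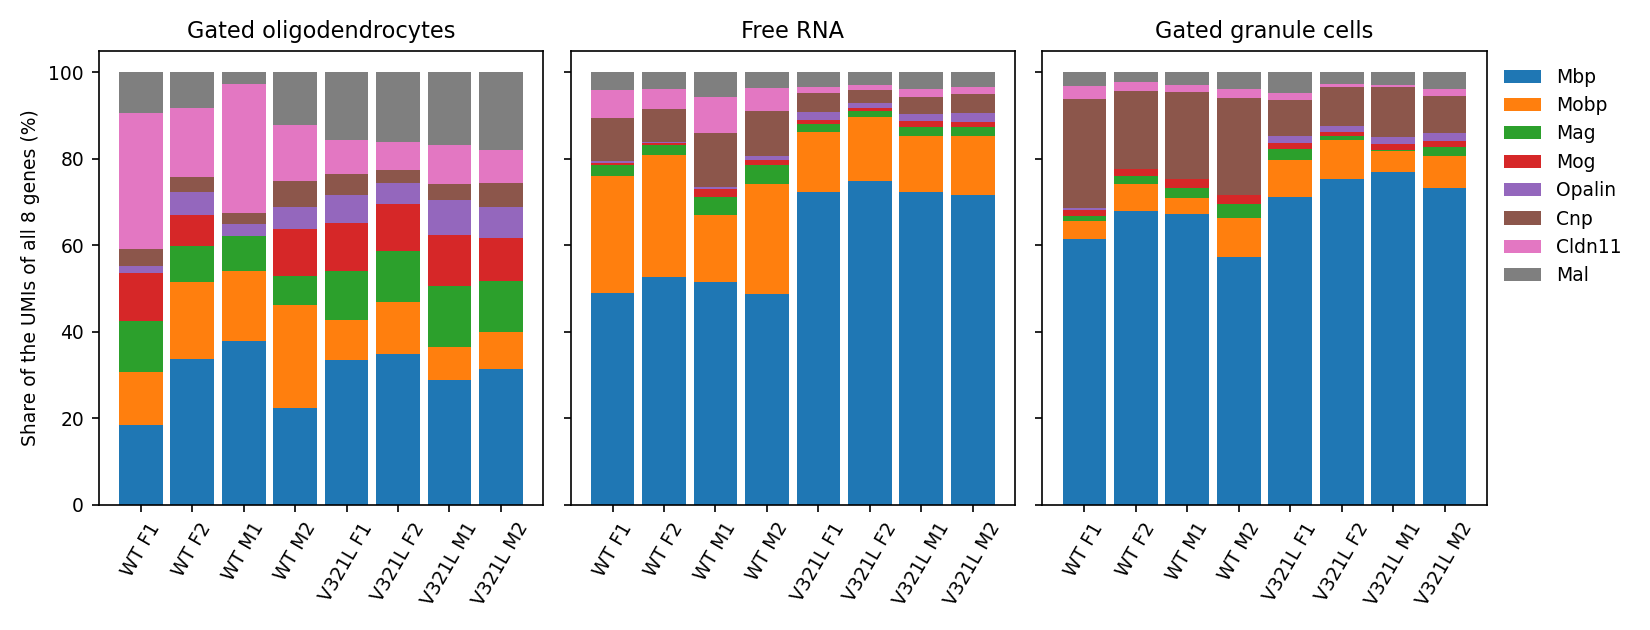
Share of each of the 8 myelin genes in their summed UMIs, in percent, as stacked bars for each of the 8 mice in OLs, free RNA and GCs. *Mbp* takes 28.8% to 34.8% in V321L OLs and 71.7% to 74.8% in V321L free RNA.

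The genes whose pattern over classes and mice was most like the mean of the 8 were found among 12925 genes with at least 100 UMIs, over 63 points, each a class of at least 10 nuclei in a mouse. The points share libraries and depth, and the coefficients are a description. The 10 closest that were neither members nor gate genes were *Insc* (Pearson r = 0.912), *C030029H02Rik*, *Hhip*, *Gm19500*, *Gjb1*, *Ankub1*, *Tmem88b*, *Sec14l5*, *Trim59* and *A330049N07Rik* (r = 0.851). *Gjb1*, which encodes a connexin of OLs, was at 16.6 CPM on average in WT OLs and at 178 CPM in V321L OLs. Each member itself correlated with the mean, from 0.683 for *Cnp* to 0.930 for *Opalin*.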

How the data were processed

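Nuclei were isolated from frozen DG with a Chromium kit, and the authors processed the libraries with Cell Ranger ARC 2.0.2; mm10, Cell Ranger, Seurat and Signac are named in the submitters' processing notes. The deposited matrices hold unnormalized counts, UMIs per gene and ATAC counts per peak, for all barcodes. Nuclei were kept with more than 500 UMIs, more than 250 genes, at least 500 ATAC counts in peaks, and upper limits on UMIs, genes and mitochondrial share set as in the study's methods. Nuclei scored by Scrublet more than 2 SD over their library's mean, 3.15% to 4.22%, were removed as doublets (scanpy 1.11.5). A nucleus joined a class with at least 3 UMIs over at least 2 of its marker genes and a ratio to the free RNA of the library at least 2 times that of any other class. Because free RNA differed between genotypes, so did the reference of the gate, which let WT OLs hold more GC RNA. UMIs were summed per mouse, the replicate.

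Sums were tested with edgeR 4.0.16 in R 4.3.3 (quasi-likelihood, TMM, filterByExpr, Benjamini-Hochberg at 0.05 over all genes tested). DESeq2 1.42.0, other scalings, filters, gates, depths and left-out mice were alternatives. CPM are per 1000000 UMIs of the sum. Log2 levels in plots and likeness used log2(CPM + 1). The genes named are the 8 members, the 3 called genes of the 33 listed with the largest rise and fall in OLs and in free RNA, and the 10 of most similar pattern. *Sox10* and *Gjb1* are named further because they fall under these rules. *Plekhb1*, and *Cryab* in free RNA against nuclei, are listed genes singled out after their values were seen. *Tmem125*, *Myrf*, *St18*, *Dock10*, *Rfx3*, *Erbb4*, *Adarb2*, *Gad2*, *Slc32a1*, *Tnr* and *Pdgfra* are gate genes singled out after their values were seen. A further gene of the rule is not reported here. The members and lists were chosen with earlier results of these data known.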

Additional observations from a re-analysis of the deposited data

Results flagged for a closer look

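Chance alone sets a sample apart by the measure used here in about 1 in 20 groups, and 48 groups of 4 mice were examined. *Cldn11* in WT OLs was 1917 CPM in F1, against 563 to 675 CPM in the other 3 mice. *Opalin* in V321L OLs was 802 CPM in F2, against 1040 to 1076 CPM in the others. *Opalin* in WT GCs was 0.378 CPM in F1, which is 1 UMI, and 0 in the others. In free RNA the library of V321L F2 stood above the other 3 V321L mice for 3 genes: *Mbp* was 3590 CPM against 1813 to 1965, *Mobp* 706 CPM against 341 to 359 and *Cnp* 141 CPM against 107 to 110.

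The ratio of free RNA to nuclei differed between the genotypes by the interaction term of edgeR for 4 genes, with log2 differences, V321L against WT, of 0.69 for *Mbp*, -1.29 for *Mag*, -0.82 for *Cldn11* and -1.18 for *Mal*. The sign for *Mbp* depended on the scaling.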

How the results depend on the processing

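Of 184 alternative values in OLs, 181 kept their direction and their side of the threshold, as did 135 of 144 in free RNA, 71 of 74 in GCs, 157 of 160 for free RNA against nuclei and 113 of 128 for its interaction with genotype. The number of genes called in OLs (689 of 1557 tested) changed along with the number tested. It was 1870 of 15114 with no filter on low counts, 1082 of 2396 with no mitochondrial limit and 276 of 672 after thinning to 500 UMIs. In GCs 8341 of 11986 became 4210 of 7023 after thinning, and the members called went from 3 to 1, the only member still tested. Interaction calls went from 4878 to 9748 with library sizes alone. Signs turned with library sizes alone for *Cnp* in free RNA (-0.051) and in GCs (0.16) and for the interactions of *Mbp* (-0.47), *Opalin* (-0.69) and *Cnp* (-1.06, which then passed as lower), and for the interaction of *Cnp* with DESeq2 size factors (-0.0078) and with barcodes of 10 to 100 UMIs (-0.0019). That of *Mog* (-0.12) was 0.023 with no filter, 0.065 with barcodes of 1 to 50 UMIs, 0.23 with barcodes under 100 ATAC counts, and ranged from -0.32 (without WT F1) to 0.25 (without WT M1) when mice were left out, with 0.04 without V321L F2. The cause was not tested. The share of higher genes among calls was 39.6% with library sizes alone against 49.98% in free RNA, and 76.8% against 54.9% in GCs.

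Leaving out each mouse in turn gave 648 to 915 genes called in OLs, 7743 to 8821 in free RNA, 7792 to 8714 in GCs, 10247 to 11090 for free RNA against nuclei and 4098 to 4722 interactions, and 7 to 8, 6 to 7, 2 to 3, 7 and 4 to 5 members called. The genes tested in OLs then numbered 1512 to 2096. With mouse names as a replicate block 970, 8932, 8597 and 4857 genes were called in OLs, free RNA, GCs and the interaction, and 7, 6, 4 and 4 members. These were out of 2336, 12315, 12803 and 15009 genes tested. Same-numbered mice correlated between -0.14 and 0.33. Some were each other's best match, such as F2 in GCs (0.33), and most were not. With so few mice this cannot decide whether the numbers pair them. Without the mouse block 8477 of 12614 genes tested differed between free RNA and nuclei, 6 of the members, and *Opalin* did not pass (1.54, adjusted p = 0.0568). Alternatives with barcodes under 100 ATAC counts, and without mitochondrial and ribosomal protein genes in nuclei, were chosen after seeing the data. WT OLs are few, 12 in M1, which limits their precision.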
